A study of Mus musculus with 18 samples.

Results

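Mouse embryonic fibroblasts that lacked Cebpg were compared with and without amino acids. The comparison took the 3 Cebpg-/- arrays in amino acid-deprived medium and the 3 Cebpg-/- arrays in normal medium, paired by replicate number, which are 6 of the 18 arrays of the study. The other 12 arrays held WT and Atf4-/- fibroblasts in the same pair of media, again with 3 arrays a group, and are used here only to set the response of Cebpg-/- cells beside theirs. All cells came from E13.5 embryos, had been passaged a few times, were plated for 24 h, and spent the last 3 h either in normal medium or in a supplemented Krebs-Ringer buffer without amino acids. The labels do not name the supplements, so the lack of amino acids and the lack of other medium components cannot be told apart. Nor do they say how the Cebpg and Atf4 alleles were made, or whether the 3 replicates of a group were separate embryos or cultures; the p-values hold for the spread among these arrays, which may be technical.

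C/EBPγ, the product of Cebpg, is a bZIP transcription factor that binds DNA as a dimer, often with other C/EBP proteins or with ATF4. When amino acids run short, the kinase GCN2 phosphorylates the initiation factor eIF2, most translation slows, and ATF4 protein is made. ATF4 then binds composite C/EBP-ATF sites and turns on genes for amino acid uptake, amino acid synthesis, glutathione supply and feedback control. In parallel, the loss of amino acids shuts off the kinase complex mTORC1, which frees TFEB-family factors to act on autophagy and lysosome genes. FOXO factors, which insulin and AKT signalling hold back, act on fasting and growth-arrest genes.

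Values are log2 probe set levels, so a change of 1 is a doubling. A change is the deprived minus the normal level within pairs, given ± SE from limma with n = 3 pairs. A gene rose or fell where its adjusted p (Benjamini-Hochberg over 13728 genes) was under 0.05, and changed by at least 2-fold where its log2 change was also at least 1.

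Several features of the arrays bear on these results. A gene was tested if its mean reached the filter level of 4.65 (the 40th percentile of all values) in at least 1 of the 6 groups. Of the fibroblast markers, Vim averaged 13.98 and Col1a1 10.42 in Cebpg-/- cells in normal medium, and the summed linear level of the 15 tested was 55600 to 65280 in normal and 58350 to 67590 in deprived medium. Macrophage transcripts were also read, Lyz2 at 12.76, 13.19 and 13.17 in normal medium, and the summed level of the 18 macrophage markers there was 13060 to 17730 in Cebpg-/- cells against 6364 to 6718 in WT cells. The deprived Cebpg-/- array of replicate 2 held transcripts of epithelial cells at levels that no other Cebpg-/- array reached. On that array 13 genes lay at least 1 log2 unit above both other deprived arrays, Krt15 at 7.03 against 4.01 and 3.93 among them, and 0 lay as far below. Replicate 3 stood apart more broadly, with 17 genes above and 12 below in normal medium and 22 above and 12 below in deprived medium by the same margin. Xist, the RNA of the inactive X chromosome, was 11.7 to 12.1 on the Cebpg-/- arrays and 5.3 to 5.8 on the WT arrays, and the Y-linked Uty was 3.0 to 3.2 and 7.0 to 8.0. In Atf4-/- cells replicate 1 followed the WT pattern, with Xist at 5.4 to 5.5, and replicates 2 and 3 followed the Cebpg-/- pattern, with Xist at 12.1 to 12.3. Between WT and Cebpg-/- cells, genotype and this pattern cannot be told apart.

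The gene removed was read first. In normal medium the brightest Cebpg probe set read 9.30, 9.26 and 9.38 on the 3 Cebpg-/- arrays, and in deprived medium 9.52, 9.43 and 9.82. It therefore still gave signal in cells labelled Cebpg-/-, and the deprived arrays lay above the normal ones. Neither the labels nor the files place its probes inside or outside the deleted part, and the reading is therefore no check of the deletion. The change was 0.28 ± 0.06 (adjusted p = 0.00807), and without replicate 3 it was 0.19 with adjusted p = 0.0647. In WT cells the same probe set changed by 1.06 ± 0.06, and the difference between the responses was -0.79 ± 0.09 (adjusted p = 0.0032). Atf4 read 12.33, 12.28 and 12.31 in normal medium and 12.70, 12.64 and 12.72 in deprived medium, a rise of 0.38 ± 0.05. The Atf4 groups did not overlap, and its message was thus present in Cebpg-/- cells in both media. Its rise in WT cells was 0.75 ± 0.05, and the difference of -0.37 ± 0.08 did not pass the test (adjusted p = 0.0511).

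Deprivation changed 4663 of 13728 genes in Cebpg-/- cells (34%). Of these, 2362 rose (17.2%) and 2301 fell (16.8%). That balance turned with the scaling and the choice of probe sets, with 2659 up and 1837 down after subtraction of array medians, 2227 and 2748 after quantile normalization, and 2112 and 2398 with the mean of all probe sets. Large changes went mostly upward, with 198 genes rising at least 2-fold (1.44%) and 25 falling at least 2-fold (0.182%). Of the risers, 59 rose at least 3-fold and 30 at least 4-fold, and 0 genes fell at least 4-fold. The direction was the same in all 3 pairs for 4642 of the 4663 called genes. Normal and deprived arrays did not overlap for 195 of the 198 risers and all 25 fallers, beside 17.9% of all genes with every deprived array above and 20.4% with every one below. These genes were chosen on the same values, so their agreement over pairs and arrays is a description only. In 20 of the 198 risers the mean in normal medium lay under the filter level, and the size of such a rise is uncertain. The count of falls depended on single pairs, with 1517 left without replicate 1 and 1513 without replicate 2. The 2-fold falls numbered 15, not 25, after subtraction of each array's median.

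The largest rise was in Rgs1. This gene, which encodes a brake on G protein-coupled receptors, read 5.47, 5.04 and 5.23 in normal medium and 9.93, 10.36 and 10.63 in deprived medium. The neutrophil chemokine gene Cxcl2 read 4.51, 4.30 and 4.63 and then 8.92, 9.45 and 9.30. Both went from near the filter level to clear signal on every array. The change of Rgs1 was 5.06 ± 0.20 (33.4-fold, adjusted p = 6.12e-08) and that of Cxcl2 was 4.74 ± 0.13 (adjusted p = 1.63e-08), for which no fold is given because its normal level lies under the filter level. Among the next largest were Atf3 at 3.70 ± 0.10, Cd83 at 3.56 ± 0.16, Ccl3 at 3.21 ± 0.12, Clec4e at 3.07 ± 0.12, Egr1 at 2.99 ± 0.11 and Gadd45a at 2.90 ± 0.07. The rest of the 15 largest were Krtap1-5, Tcim, Pdk4, Ppp1r15a, Klhl24, Rasgef1b and Tiparp, with changes from 2.70 down to 2.36. Clec4e and Krtap1-5 also averaged under the filter level in normal medium, at 4.11 and 4.53.

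**Figure D1:**
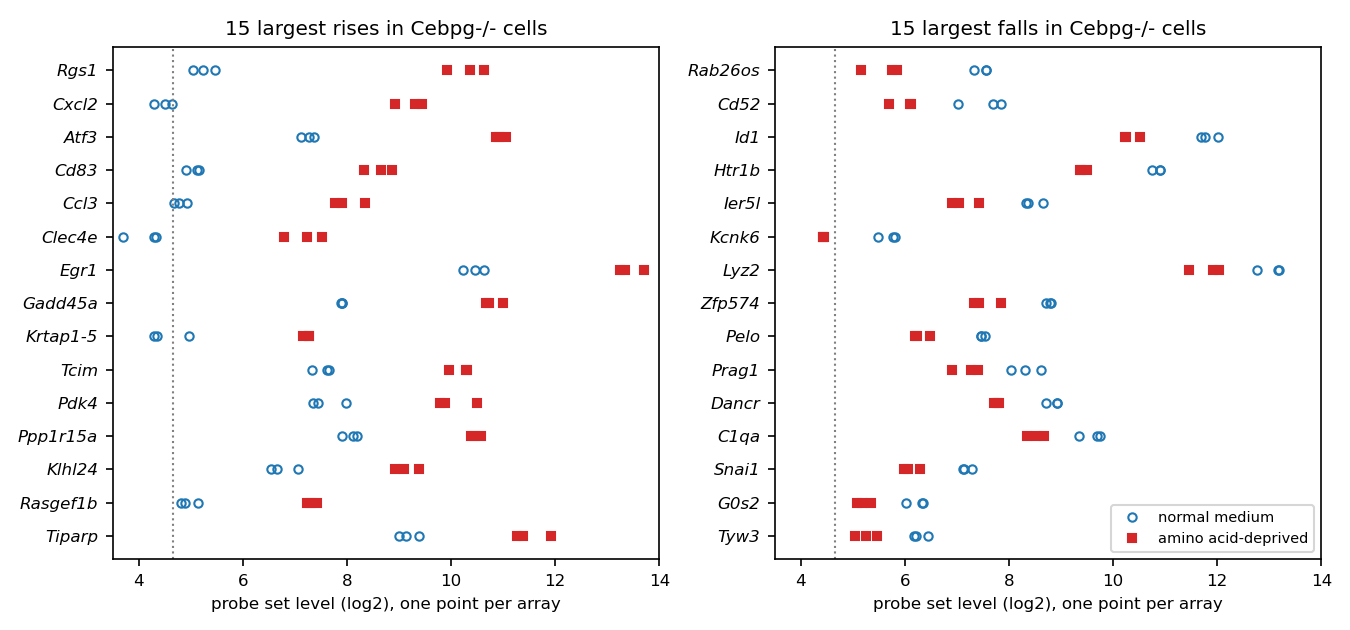
Log2 probe set levels of the 15 largest rises (left) and falls (right) in Cebpg-/- cells, 1 point per array, with 3 arrays in normal medium (open circles) and 3 in deprived medium (squares). The dotted line is the filter level of 4.65, and for each of these 30 genes the deprived and normal arrays do not overlap.

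The regulators of the integrated stress response rose for the most part. Of 26 tested, the targeted Cebpg among them, 16 rose and 1 fell, beside 17.2% and 16.8% of all genes. Their median change was 0.30 beside -0.02 over all genes. The counts of the lists below stand beside the same shares and median. Atf3, a bZIP factor induced by ATF4, read 7.27, 7.11 and 7.36 in normal medium and 11.05, 10.93 and 10.87 in deprived medium. Ddit3, which encodes the stress factor CHOP, went from 8.41, 8.32 and 8.38 to 10.48, 10.44 and 10.87. Ppp1r15a, whose product GADD34 restores translation by helping to dephosphorylate eIF2, went from 8.11, 8.19 and 7.90 to 10.58, 10.46 and 10.39. In all 3 genes the deprived arrays lay well above the normal ones. Their changes were 3.70 ± 0.10 for Atf3, 2.23 ± 0.08 for Ddit3 and 2.41 ± 0.06 for Ppp1r15a. Klhl24, an ubiquitin ligase adaptor, rose by 2.38 ± 0.11, and Crebrf, a regulator of CREB3 factors, by 1.77 ± 0.13. Chac1, which breaks down glutathione, rose by 1.01 ± 0.12, with 10.32 in deprived medium in replicate 3 and 9.28 and 9.26 in the other two.

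A second set of regulators moved little or not at all. Trib3, a pseudokinase that feeds back on ATF4 and CHOP, read 8.08, 7.95 and 8.26 in normal medium and 8.40, 8.45 and 9.28 in deprived medium. Replicate 3 was the highest of the deprived arrays, and the rise was 0.61 ± 0.13 (adjusted p = 0.00418). Other rises under 1 were 0.62 ± 0.06 in Nupr1, 0.78 ± 0.08 in Eif2ak3 (the kinase PERK), 0.33 ± 0.08 in Sesn2 and 0.27 ± 0.05 in Atf5. That of Sesn2, a leucine sensor that restrains mTORC1, did not pass the test without replicate 1 (adjusted p = 0.0555) or without replicate 2 (adjusted p = 0.0632). The rise of Ppp1r15b, 0.17 ± 0.06, was likewise lost on leaving out any 1 replicate, with adjusted p from 0.0546 to 0.235. Fgf21, a secreted stress hormone, read 5.15, 4.89 and 4.78 and then 5.05, 5.17 and 5.24. Its groups overlapped, and its change was 0.21 ± 0.17 (adjusted p = 0.384). Also short of the test were Ddit4 at 0.10 ± 0.08, Jdp2 at 0.09 ± 0.04, Stc2 at 0.10 ± 0.06 and Eif2ak4, which encodes GCN2, at -0.15 ± 0.07. Vegfa, the vascular growth factor gene, fell (-0.40 ± 0.07).

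**Figure D2:**
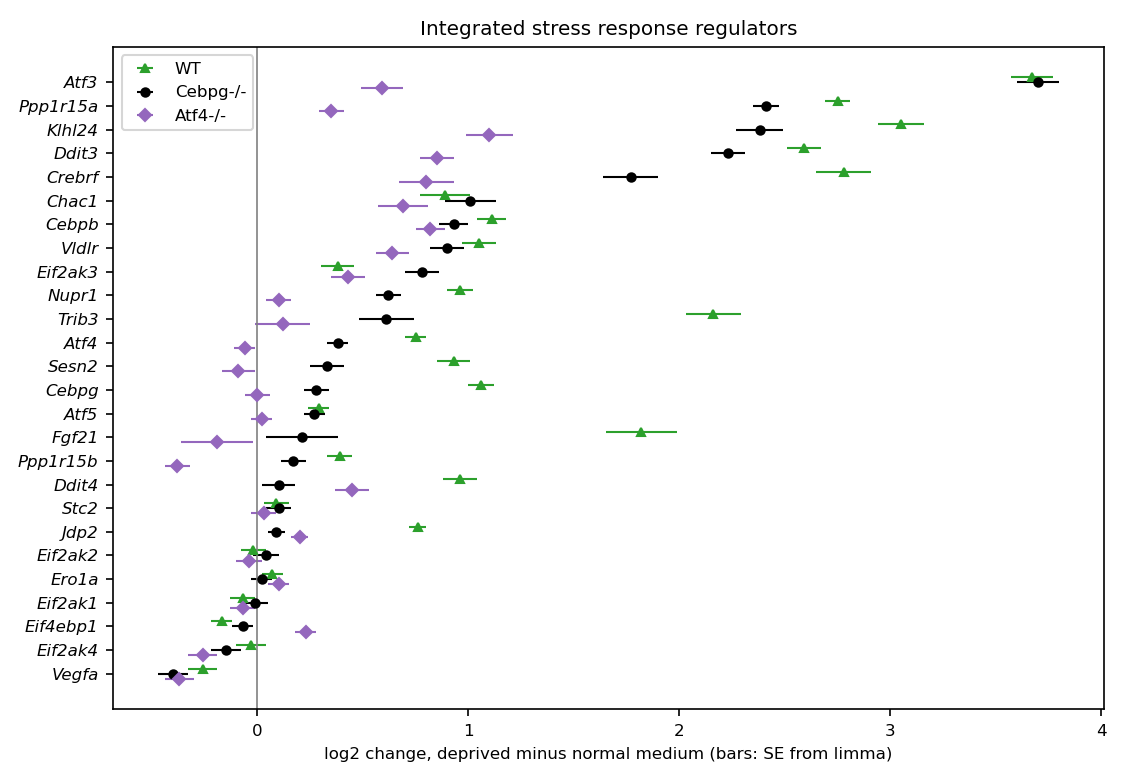
Log2 change under deprivation (deprived minus normal medium, bars SE from limma, n = 3 pairs) of the 26 stress response regulators in Cebpg-/- (circles), WT (triangles) and Atf4-/- (diamonds) cells, ordered by the change in Cebpg-/- cells. Atf3 lies at about the same place in Cebpg-/- and WT cells, while Trib3 and Fgf21 lie near 2 in WT cells and under 1 in Cebpg-/- cells.

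Upstream sequences were read for the composite element that C/EBP-ATF dimers bind. The letters TGATGNAAN were searched on both strands in the 250 bases before each RefSeq start (GRCm38.p6). A match was found for 10 of the 161 genes with a promoter among those that rose at least 2-fold (6.21%), beside 268 of 11038 of all genes tested (2.43%). Genes here have 1.32 and 1.27 start sites on average. None of the 15 genes with a promoter among the 2-fold fallers held a match. For Trib3, Ddit3, Cebpg, Nfil3 and Cebpb no match or no promoter sequence was found. Asns, whose change was not called, held a match. The sequences shown are examples picked from the matches found. The first 4 below rose in Cebpg-/- cells, and the last pair did not pass the test there. Each sequence is that of the gene's strand, 5′ to 3′, with a match, on either strand, in capitals. Slc7a11 held a second match, TTTGCATCA at -48 to -40 from the start, which is left in lower case in its sequence.
Atf3 (chr1:191183396-191183484, minus strand): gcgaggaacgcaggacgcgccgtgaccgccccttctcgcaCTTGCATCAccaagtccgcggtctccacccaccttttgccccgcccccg
Chac1 (chr2:119351008-119351096, plus strand): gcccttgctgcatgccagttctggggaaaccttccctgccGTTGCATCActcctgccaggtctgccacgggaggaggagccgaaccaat
Herpud1 (chr8:94386276-94386364, plus strand): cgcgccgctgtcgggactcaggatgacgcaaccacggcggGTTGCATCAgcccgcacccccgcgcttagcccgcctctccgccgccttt
Gadd45g (chr13:51846533-51846621, plus strand): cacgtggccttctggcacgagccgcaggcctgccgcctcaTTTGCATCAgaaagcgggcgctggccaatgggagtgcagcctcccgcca
Slc7a11 (chr3:50443631-50443719, minus strand): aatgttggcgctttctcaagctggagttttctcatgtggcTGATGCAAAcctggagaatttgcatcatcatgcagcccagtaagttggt
Fgf21 (chr7:45615582-45615670, minus strand): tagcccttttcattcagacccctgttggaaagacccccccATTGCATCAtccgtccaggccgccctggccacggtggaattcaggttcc
The element thus stood in front of genes whose changes ranged from -0.08 in Slc7a11 to 3.70 in Atf3. Between them lay Fgf21 at 0.21, Chac1 at 1.01, Herpud1 at 1.11 and Gadd45g at 1.29. A match is a run of letters and was not tested as a binding site.

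The list of C/EBP and ATF factors held Cebpg itself and possible partners of its product. Of 25 tested, 15 rose and 1 fell, with a median of 0.28. The rise of Cebpg described above is counted among the 15. Cebpb rose by 0.93 ± 0.07, Cebpa by 0.35 ± 0.08 and Cebpd by 0.34 ± 0.08; that of Cebpa was not called without replicate 1 (adjusted p = 0.0524). Nfil3, a repressor of the same bZIP class, read 8.16, 8.19 and 8.18 and then 9.22, 9.10 and 9.33, a rise of 1.04 ± 0.07 with no overlap of the groups. Creb5 rose by 0.93 ± 0.13, Atf6 by 0.52 ± 0.05 and Creb1 by 0.40 ± 0.06. Atf2 (0.17 ± 0.06), Atf7 (0.05 ± 0.07) and the 3 Batf genes (Batf -0.12, Batf2 -0.09, Batf3 -0.06) did not pass the test, and Creb3 fell (-0.19 ± 0.05), though not without replicate 2 (adjusted p = 0.128).

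Genes that supply amino acids moved little. Of 21 genes for amino acid synthesis 2 rose and 2 fell, with a median of -0.03. Asns, the asparagine synthetase gene and a standard ATF4 target, changed by 0.17 ± 0.07 (adjusted p = 0.104). Cth, the last enzyme of cysteine synthesis, rose by 0.29 ± 0.09, Got1 rose by 0.20 ± 0.05, Ass1 fell by 0.27 and the serine pathway gene Psat1 by 0.12, and its neighbours in that pathway Phgdh (-0.04 ± 0.06) and Psph (-0.03 ± 0.05) did not pass the test. The call of Cth was lost on leaving out any 1 replicate (adjusted p from 0.0505 to 0.157), that of Got1 without replicate 3 (0.0838) and that of Ass1 without replicate 2 (0.127). Of 23 transporters 6 rose and 2 fell, with a median of -0.01. Slc38a2, the amino acid-regulated carrier SNAT2, read 11.26, 11.28 and 11.21 in normal medium and 11.91, 12.01 and 12.28 in deprived medium, a rise of 0.81 ± 0.08. The heavy chain gene Slc3a2 rose by 0.52 ± 0.05, and its light chain partner Slc7a5 changed by -0.03 ± 0.06. The cystine carrier gene Slc7a11 read 5.86, 5.66 and 5.26 and then 5.72, 5.37 and 5.46; the groups overlapped, and the change was -0.08 ± 0.10 (adjusted p = 0.592). Slc7a6 and Slc43a2, the carriers that fell, changed by -0.30 ± 0.06 and -0.26 ± 0.08. In WT cells the median of the synthesis list was 0.05, and that of the transporters was 0.25. Against WT cells, 1 synthesis gene and 3 transporters had a lower response in Cebpg-/- cells, and 0 a higher one. Over all genes, 0.721% had a lower and 0.656% a higher response by the same test. Asns rose by 0.33 ± 0.07 in WT cells, and the difference of -0.16 ± 0.10 did not pass the test (adjusted p = 0.57).

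Of 19 aminoacyl-tRNA synthetases, which load amino acids onto tRNAs, 7 rose and 0 fell, with a median of 0.09. The largest were 0.35 ± 0.05 in Rars and 0.32 ± 0.06 in Aars. Without replicate 3 the number that rose was 4. Among 22 genes for glutathione and antioxidant defence 3 rose and 4 fell, with a median of -0.03. The risers were Chac1, Cth and Nfe2l2, the gene of the antioxidant regulator NRF2 (0.64 ± 0.06). Gclm, the modifier subunit of glutathione synthesis, fell by 0.22, Srxn1 by 0.30, Gsr by 0.16 and Gsta4 by 0.22, while the catalytic subunit gene Gclc changed by 0.13 ± 0.05 and did not pass the test.

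Genes of the fasting and insulin-withdrawal type rose together. Of 23, 15 rose and 0 fell, and the median was 0.71. The pyruvate dehydrogenase kinase gene Pdk4 read 7.35, 7.44 and 7.98 in normal medium and 9.79, 9.88 and 10.50 in deprived medium. Irs2, an insulin receptor substrate, went from 7.16, 6.88 and 6.89 to 8.99, 8.64 and 8.99, and Txnip, an inhibitor of glucose uptake, from 8.98, 9.05 and 8.99 to 10.73, 10.73 and 10.88. In each the groups were far apart. The changes were 2.47 ± 0.08, 1.89 ± 0.07 and 1.77 ± 0.06, and the stress gene Gadd45a changed by 2.90 ± 0.07. Fbxo32, an atrophy-related ubiquitin ligase, rose by 1.61 ± 0.17, and Foxo3 itself by 1.24 ± 0.08, while Foxo1 (-0.11 ± 0.06) did not pass the test. The letters GTAAACA, a core that FOXO factors bind, were found on either strand upstream of 11 of the 161 risers (6.83%), beside 302 of 11038 of all genes (2.74%). No match was found for Pdk4, Irs2, Gadd45a, Fbxo32 or Foxo3, which also rose at least 2-fold. Matches upstream of Txnip and of Bcl2l11, a proapoptotic gene that rose by 1.09 ± 0.06, are shown because both genes are regarded as FOXO targets.
Txnip (chr3:96557796-96557882, plus strand): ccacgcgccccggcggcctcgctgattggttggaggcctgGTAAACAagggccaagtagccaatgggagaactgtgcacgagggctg
Bcl2l11 (chr2:128125788-128125857, plus strand): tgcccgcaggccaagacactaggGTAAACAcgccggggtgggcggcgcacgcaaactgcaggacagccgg

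The mTORC1 branch showed a few large rises among many small changes. Of 29 nutrient-sensing genes 9 rose and 1 fell, with a median of 0.08. The largest belonged to the folliculin complex, which controls the Rag GTPases on lysosomes. Fnip1 read 8.72, 8.59 and 8.65 in normal medium and 10.31, 10.55 and 10.85 in deprived medium, and Flcn 8.13, 8.15 and 8.17 and then 9.52, 9.73 and 9.92. These rose by 1.92 ± 0.11 and 1.57 ± 0.08, Fnip2 by 1.41 ± 0.09, and the Rag GTPase gene Rragd by 1.52 ± 0.08. Mtor (-0.01 ± 0.05), Rptor (0.08 ± 0.07) and Rheb (0.03 ± 0.05) did not pass the test. Autophagy and lysosome genes rose in 20 of 38 cases and fell in 5, with a median of 0.17. Atg14, a subunit of the lipid kinase complex that starts autophagosomes, rose by 1.25 ± 0.06, Gabarapl1 by 0.94 ± 0.05 and the cargo receptor Sqstm1 by 0.85 ± 0.06. The 5 falls were -0.31 in Atg16l1, -0.23 in Atg4b, -0.20 in Tfe3, -0.15 in Atg5 and -0.13 in Map1lc3a, and the number that fell was 1 without replicate 1, 1 without replicate 2 and 2 without replicate 3. The CLEAR motif of TFEB-family factors, searched as CACGTG with GT before and AC after it, stood upstream of 3 of the 161 risers (1.86%) and of 63 of all 11038 genes (0.571%). These 3 were Crebrf, Tnfaip3 and Rcan1, and no match was found for Fnip1, Flcn, Fnip2, Rragd or Atg14. The motif is shown, with CACGTG in capitals, for Crebrf, which belongs to the stress regulators above.
Crebrf (chr17:26715483-26715572, plus strand): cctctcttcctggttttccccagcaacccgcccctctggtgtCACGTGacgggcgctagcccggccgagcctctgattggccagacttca

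Immediate early genes, the transcripts that answer growth factors and stress within minutes, rose broadly. Of 34, 24 rose and 4 fell, and the median was 0.75. Egr1 read 10.64, 10.22 and 10.46 in normal medium and 13.70, 13.35 and 13.25 in deprived medium. Fos read 7.97, 7.86 and 7.73 and then 10.67, 9.99 and 9.66. Neither gene's groups overlapped, and their changes were 2.99 ± 0.11 (7.97-fold) and 2.25 ± 0.12 (4.77-fold). Jun rose by 1.96 ± 0.08, Fosb by 1.44 ± 0.09, Junb by 1.13 ± 0.11 and Myc by 1.17 ± 0.07, and the small GTPase gene Gem by 2.32 ± 0.11. Dusp1, which inactivates MAP kinases, rose by 2.28 ± 0.09. The 4 that fell were Egr2 (-0.68 ± 0.07), Srf (-0.60 ± 0.05), Klf2 (-0.40 ± 0.06) and Nr4a1 (-0.26 ± 0.06), and Egr1 and Egr2 thus moved in opposite directions. That of Nr4a1 was not called without replicate 2 (adjusted p = 0.0786). Feedback genes of the ERK pathway did not rise as a group: 2 of 15 rose and 4 fell, with Spry2 at 1.12 ± 0.06, Dusp4 at 0.96 ± 0.08, Dusp7 at -0.49 ± 0.04 and Lif at -0.48 ± 0.06. Among 19 growth factor ligands 6 rose and 4 fell, and the largest changes were 1.40 ± 0.08 in Edn1, 0.80 ± 0.08 in Kitl, 0.79 ± 0.06 in Bdnf and 0.69 ± 0.15 in Nrg1.

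Inflammatory mediators rose in 20 of 30 cases and fell in 2, with a median of 0.58. Ccl3, a chemokine made chiefly by macrophages, read 4.68, 4.78 and 4.92 in normal medium and 7.76, 8.34 and 7.91 in deprived medium. Clec4e, a receptor for microbial glycolipids on myeloid cells, read 3.70, 4.30 and 4.32 and then 6.79, 7.51 and 7.23. Both were near or below the filter level in normal medium and above it on every deprived array. The related Ccl4 rose by 1.37 ± 0.11, and Tnfaip3, an inhibitor of NF-κB signalling, by 1.71 ± 0.06. Ccl2 rose by 1.14 ± 0.10, Il6 by 1.05 ± 0.10, Tnf by 0.95 ± 0.13 and the NF-κB inhibitor gene Nfkbia by 1.14 ± 0.12. Il1b (-0.00 ± 0.10) and Ptgs2 (-0.05 ± 0.07) did not pass the test, and Il11 fell (-0.90 ± 0.08), as did Lif.

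Macrophage markers moved the other way. Of 18, 0 rose and 14 fell (9 without the replicate block), with a median of -0.40. Lyz2, the lysozyme gene of macrophages, read 12.76, 13.19 and 13.17 in normal medium and 11.46, 12.04 and 11.92 in deprived medium, and Cd52, a leukocyte surface glycoprotein, 7.01, 7.69 and 7.85 and then 5.69, 6.11 and 6.09. Their groups did not overlap, and the falls were -1.23 ± 0.05 and -1.56 ± 0.08. The complement gene C1qa fell (-1.08 ± 0.06), as did the fractalkine receptor gene Cx3cr1 (-0.94 ± 0.08). Csf1r, the receptor that macrophages need to live, fell by 0.28, and Ptprc, which marks all leukocytes, changed by 0.19 ± 0.08 and did not pass the test. The summed level of the 18 markers went from 13060 to 17730 in normal medium to 7494 to 10200 in deprived medium. In bulk RNA fewer cells of a type and less RNA per cell cannot be told apart. These markers thus fell where Ccl3, Clec4e and other myeloid transcripts rose, and their part in the rise of the mediators was not tested.

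**Figure D3:**
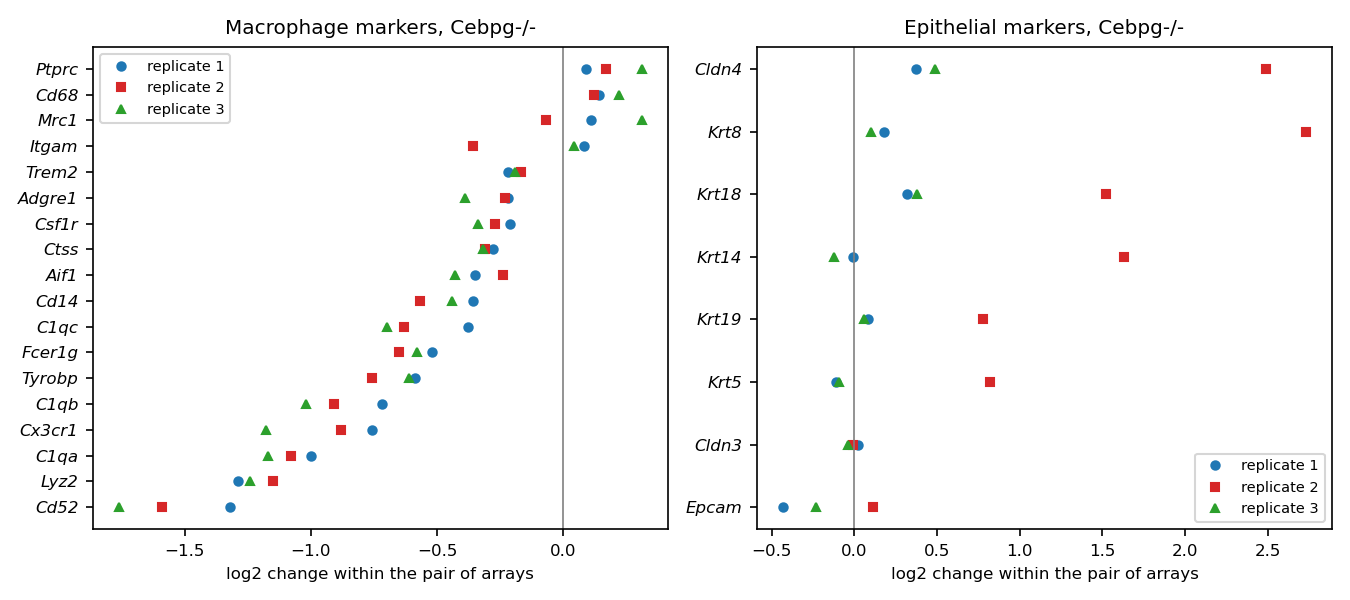
Log2 change within each of the 3 Cebpg-/- pairs of arrays for 18 macrophage markers (left) and 8 epithelial markers (right). From Trem2 down to Cd52, the macrophage markers lie below 0 in all 3 pairs, and among the epithelial markers replicate 2 alone reaches changes above 1.

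The epithelial transcripts of the deprived array of replicate 2 touched few calls. Of 8 epithelial markers 2 rose, with a median of 0.40 over the list, of 1.17 in pair 2, of 0.05 in pair 1 and of 0.01 in pair 3. The tight junction gene Cldn4 read 4.40, 4.81 and 4.69 in normal medium and 4.77, 7.31 and 5.18 in deprived medium, where replicate 2 stands far above the others. Its rise was 1.12 ± 0.32, and without replicate 2 it was 0.43 (adjusted p = 0.0356). For the keratin gene Krt18 the rise was 0.74 ± 0.18, and without replicate 2 it was 0.35 (adjusted p = 0.0121). Neither was called without the replicate block (adjusted p = 0.124 and 0.154) or on the 6 Cebpg-/- arrays alone (0.0841 and 0.0585), and Cldn4 was not with an intensity trend (0.0755). Fibroblast markers were mostly not called, with 3 of 15 rising, 1 falling and a median of 0.02. The collagen gene Col1a1, for example, changed by -0.03 ± 0.05, while Pdgfra, the PDGF receptor of fibroblasts, rose by 0.79 ± 0.08. Endothelial markers were tested for 4 of 10 genes, of which 1 rose (Kdr, 0.69 ± 0.05) and 0 fell. Skeletal muscle markers had 1 rise, in Tnnc1 (0.20 ± 0.06), and 1 fall, in Acta1 (-0.44 ± 0.07), among 6, and neural and glial markers had 1 rise, in Map2 (0.52 ± 0.14), and 1 fall, in Sox2 (-0.50 ± 0.14), among 7. The call of Tnnc1 was lost without replicate 1 (adjusted p = 0.108) and without replicate 2 (0.151), and that of Sox2 without replicate 1 (0.107) and without replicate 3 (0.125).

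Growth arrest and cell death genes gave a mixed set of rises. Of 21 p53 targets 13 rose and 2 fell, with a median of 0.34. Gadd45a, which slows the cell cycle after damage, read 7.91, 7.90 and 7.89 in normal medium and 10.68, 10.72 and 10.99 in deprived medium, with groups that stood far apart. Trp53inp1 rose by 1.24 ± 0.07, the antiproliferative gene Btg2 by 1.13 ± 0.13 and Cdkn1a, the gene of the CDK inhibitor p21, by 0.34 ± 0.05. Of 14 BCL2 family genes 6 rose and 2 fell, with a median of 0.00. The proapoptotic Bcl2l11 (BIM) rose by 1.09 ± 0.06, Bbc3 (PUMA) by 0.71 ± 0.09 and Pmaip1 (NOXA) by 0.62 ± 0.06, and Bok fell (-0.56 ± 0.05). Among 19 CDK inhibitor, cyclin and BTG/TOB genes 8 rose and 2 fell, with Gadd45g at 1.29 ± 0.06, Btg1 at 1.11 ± 0.05 and the cyclin genes Ccnd3 and Ccne1 at -0.47 ± 0.06 and -0.27 ± 0.05. Genes of S phase and mitosis mostly did not pass the test. Of 28, 7 rose and 2 fell, with a median of 0.06; 4 rose when replicate 1 or replicate 3 was left out, and 0 without the replicate block. The thymidylate synthase gene Tyms fell most (-0.74 ± 0.15).

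The chaperone and hypoxia lists had shares of rises and falls near or below the 17.2% and 16.8% of all genes. Of 26 ER chaperone and degradation genes 4 rose and 3 fell. Dnajb9, an ER co-chaperone, read 8.84, 8.89 and 8.96 and then 10.56, 10.55 and 10.77, a rise of 1.73 ± 0.06, and Herpud1, a part of the ER degradation machinery, rose by 1.11 ± 0.06. The main ER chaperone gene Hspa5 rose by 0.19 ± 0.05, and Xbp1 (-0.11 ± 0.05) did not pass the test. Of 18 cytosolic chaperones 3 rose and 3 fell. Hspa1b, an inducible HSP70 gene, read 10.72, 10.57 and 10.22 in normal medium and 9.70, 9.77 and 9.37 in deprived medium, a fall of -0.89 ± 0.07 without overlap; its near-identical copy Hspa1a (-0.19 ± 0.11) did not pass the test, and probes may not tell the copies apart. Of 24 hypoxia and glycolysis genes 5 rose and 4 fell, among them Ndrg1 (1.77 ± 0.08), Hk2 (0.48 ± 0.05) and the vasodilator peptide gene Adm (-0.99 ± 0.11). Clock genes rose in 10 of 15 cases and fell in none, with a median of 0.44. The repressor Nr1d1 (REV-ERBα) read 6.48, 6.56 and 6.44 and then 8.46, 8.29 and 8.10. It rose by 1.79 ± 0.11, the opposing activator Rora by 1.39 ± 0.08 and Per1 by 0.88 ± 0.11, while Clock (0.04 ± 0.06) and Per2 (-0.07 ± 0.06) did not pass the test. Interferon-stimulated genes rose in 5 of 15 cases, led by Usp18 (1.07 ± 0.10) and Ifit2 (0.84 ± 0.06), and the number that rose was 2 without replicate 1 and 2 without replicate 3. Usp18 averaged 4.43 in normal medium, under the filter level.

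Of the 25 genes that fell at least 2-fold, 3 were the macrophage markers Cd52, Lyz2 and C1qa described above. Rab26os, a noncoding RNA, read 7.56, 7.56 and 7.33 in normal medium and 5.75, 5.15 and 5.84 in deprived medium, the deepest fall (-1.90 ± 0.18). Id1, an inhibitor of basic helix-loop-helix factors and a direct target of BMP signals, read 11.69, 11.77 and 12.01 and then 10.24, 10.22 and 10.51. The groups of both were separate on all arrays, and Id1 fell by 1.50 while its relative Id2 rose by 0.81 ± 0.16. Of 21 genes of TGF-beta and BMP feedback 8 rose and 4 fell, with Bmp4 at 0.67 ± 0.10. The serotonin receptor gene Htr1b fell (-1.43 ± 0.05), as did Ier5l (-1.32 ± 0.10), the potassium channel gene Kcnk6 (-1.25 ± 0.07) and Snai1 (-1.07 ± 0.06), a repressor of epithelial genes. Zfp574, Pelo, Prag1, Dancr, G0s2 and Tyw3 fell by between 1.02 and 1.23.

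Lists of growth and synthesis held smaller falls, beside the 16.8% of all genes that fell. Of 27 genes for sterol and fatty acid synthesis 12 fell and 2 rose, with a median of -0.11. Hmgcs1, the second enzyme of the mevalonate pathway, fell (-0.51 ± 0.06), as did Elovl6 (-0.47 ± 0.05) and Idi1 (-0.40 ± 0.06), while Insig1, which restrains the pathway's regulators, rose (0.57 ± 0.08) and Insig2 rose by 0.19 ± 0.06. Of 29 ribosome biogenesis genes 9 fell and 3 rose, with a median of -0.08. Polr1b, a subunit of RNA polymerase I, fell most (-0.37 ± 0.06), and the number that fell was 4 without replicate 1 and 4 without replicate 2, a share near that of all genes. Cytosolic ribosomal protein genes were close to 0, with 22 of 23 not called and Rpl12 falling (-0.86 ± 0.09). Of 19 YAP and SRF targets, which include actin and contractile genes, 8 fell and 2 rose, led by Srf and Cnn1 (-0.42 ± 0.05), and 4 fell without replicate 1, 4 without replicate 2 and 5 without replicate 3, and 3 without the replicate block. Among 28 matrix genes 5 rose and 2 fell, shares near or below the 17.2% and 16.8% of all genes. The secreted proteases Adamts5 (1.47 ± 0.06) and Adamts1 (1.43 ± 0.07) rose most, and 3 rose without replicate 1.

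**Figure D4:**
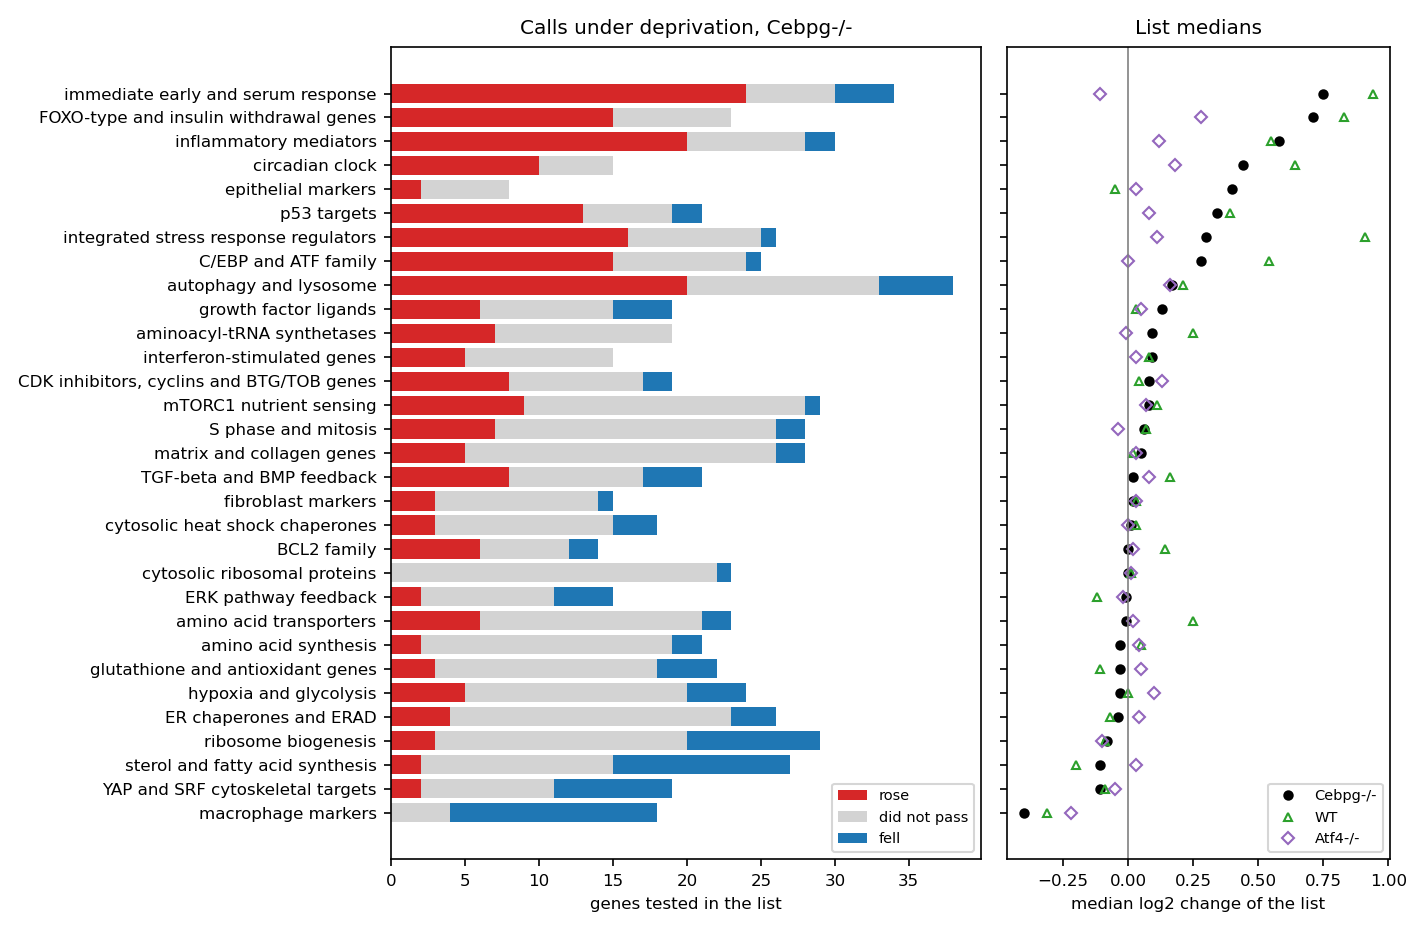
Left, number of genes in each list that rose, fell or did not pass the test in Cebpg-/- cells; right, the median log2 change of each list in Cebpg-/- (circles), WT (triangles) and Atf4-/- (diamonds) cells. Immediate early genes have the highest Cebpg-/- median (0.75) and macrophage markers the lowest (-0.40).

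Set beside WT cells, which share no arrays with Cebpg-/- cells, the response differed by the test in a small set of genes. In WT cells 5380 genes were called (39.2%), 2687 up (19.6%) and 2693 down (19.6%), and 248 rose at least 2-fold (1.81%) and 68 fell (0.495%). The shared risers, 167, made up 84.3% of the Cebpg-/- list and 67.3% of the WT list, and the 19 shared fallers made up 76.0% and 27.9%. Over the 198 Cebpg-/- risers the median change was 1.29 in Cebpg-/- cells and 1.40 in WT cells. Across the 13728 genes the changes correlated with r = 0.87, where genes are not independent and both sets of arrays went through the same normalization. The test of the difference called 189 genes (1.38%), of which 90 had a higher response in Cebpg-/- cells (0.656%) and 99 a lower one (0.721%). Of the 198 risers 15 had a higher and 16 a lower response than in WT cells, and 167 were not called. These counts varied with single pairs: leaving out 1 Cebpg-/- pair gave 59, 38 and 45 genes with a higher response for replicates 1, 2 and 3, and 57, 40 and 80 with a lower one. Leaving out WT replicate 2 or 3 gave 51 and 31 higher and 49 and 43 lower.

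The genes with a lower response in Cebpg-/- cells were led by stress response genes. Fgf21 changed by 1.82 ± 0.17 in WT cells and 0.21 ± 0.17 in Cebpg-/- cells, a difference of -1.61 ± 0.25 (adjusted p = 0.0124). Trib3 changed by 2.16 ± 0.13 against 0.61 ± 0.13, a difference of -1.55 ± 0.18 (adjusted p = 0.0032). For Slc7a11, which brings in the cystine needed for glutathione, the changes were 1.19 ± 0.10 and -0.08 ± 0.10, a difference of -1.27 ± 0.15 (adjusted p = 0.0032). These 3 rose at least 2-fold in WT cells, and in Cebpg-/- cells Trib3 alone passed the test. Nr4a1 rose in WT cells and fell in Cebpg-/- cells, with a difference of -1.03 ± 0.09. The differences of Apobr, Glcci1 and Crebrf were -1.18 ± 0.16, -1.05 ± 0.10 and -1.01 ± 0.18. Without the replicate block those of Apobr (adjusted p = 0.0534) and Glcci1 (adjusted p = 0.381) were not called. That of Crebrf was not called without Cebpg-/- replicate 1 or 2 or without WT replicate 1 or 3, with adjusted p from 0.0802 to 0.11. With the mean of all probe sets it was -0.47 (adjusted p = 0.227), and it was not called without the replicate block (adjusted p = 0.0608). Among the 26 stress regulators 7 had a lower response and 0 a higher one, beside 0.721% and 0.656% of all genes. The 7 were Crebrf, Trib3, Sesn2, Fgf21, Ddit4, Jdp2 and Cebpg, the last being the targeted gene itself. The list's median was 0.30 against 0.91 in WT cells. Atf3 (0.03 ± 0.15), Ddit3 (-0.36 ± 0.11), Ppp1r15a (-0.34 ± 0.09) and Chac1 (0.12 ± 0.17) did not pass the test of the difference. Of the transporters, Slc3a2 (-0.39 ± 0.07) and Slc1a4 (-0.58 ± 0.11) also had a lower response. Bdnf (-0.81 ± 0.08) and Nfil3 (-0.53 ± 0.09) did as well. Of the 44 genes that rose at least 2-fold in WT cells with a lower response in Cebpg-/- cells, 36 had a promoter sequence. Of these, 3 (8.33%) held TGATGNAAN, beside 2.43% of all genes and 6.21% of the 2-fold risers in Cebpg-/- cells. They had 1.44 start sites on average, against 1.27 over all genes.

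Genes with a higher response in Cebpg-/- cells included myeloid and chemokine genes. Clec4e changed by 1.27 ± 0.12 in WT cells and 3.07 ± 0.12 in Cebpg-/- cells, a difference of 1.80 ± 0.17 (adjusted p = 0.00139). Its mean in normal medium was under the filter level in both, at 3.80 and 4.11, so the size of the difference is uncertain. Ccl3 differed by 1.47 ± 0.17, Cxcl2 by 1.30 ± 0.19 and Rgs1 by 1.43 ± 0.28. In WT cells in normal medium Ccl3 averaged 4.39 and Cxcl2 4.27, under the filter level, so the sizes of their differences are uncertain as well. That of Rgs1 was not called without Cebpg-/- replicate 2 or 3, nor without any 1 WT replicate, with adjusted p from 0.0627 to 0.126. Beside these differences stands the summed level of the 18 macrophage markers in normal medium, 13060 to 17730 in Cebpg-/- and 6364 to 6718 in WT cells, whose part was not tested. Akr1c14, an aldo-keto reductase gene, read 3.90, 4.01 and 4.15 and then 5.30, 5.64 and 5.87 in Cebpg-/- cells, a rise of 1.58 ± 0.07 against 0.43 ± 0.07 in WT cells (difference 1.16 ± 0.11). In WT cells it stayed under the filter level in both media (3.71 and 4.13), which leaves the size of this difference uncertain too. A further group fell less than in WT cells. Sema7a, a membrane-anchored semaphorin gene, fell in both, with changes of -0.69 ± 0.06 in Cebpg-/- and -2.07 ± 0.06 in WT cells, a difference of 1.38 ± 0.09 (adjusted p = 0.00023). Inka1 differed by 1.19 ± 0.24, a call that was lost without any 1 Cebpg-/- replicate and without WT replicate 2 (adjusted p from 0.101 to 0.126). The noncoding RNA Neat1 rose in Cebpg-/- cells (0.42 ± 0.07) and fell in WT cells (-0.71 ± 0.07), a difference of 1.13 ± 0.10; without the replicate block neither its change in Cebpg-/- cells (adjusted p = 0.296) nor its difference (adjusted p = 0.401) was called.

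**Figure D5:**
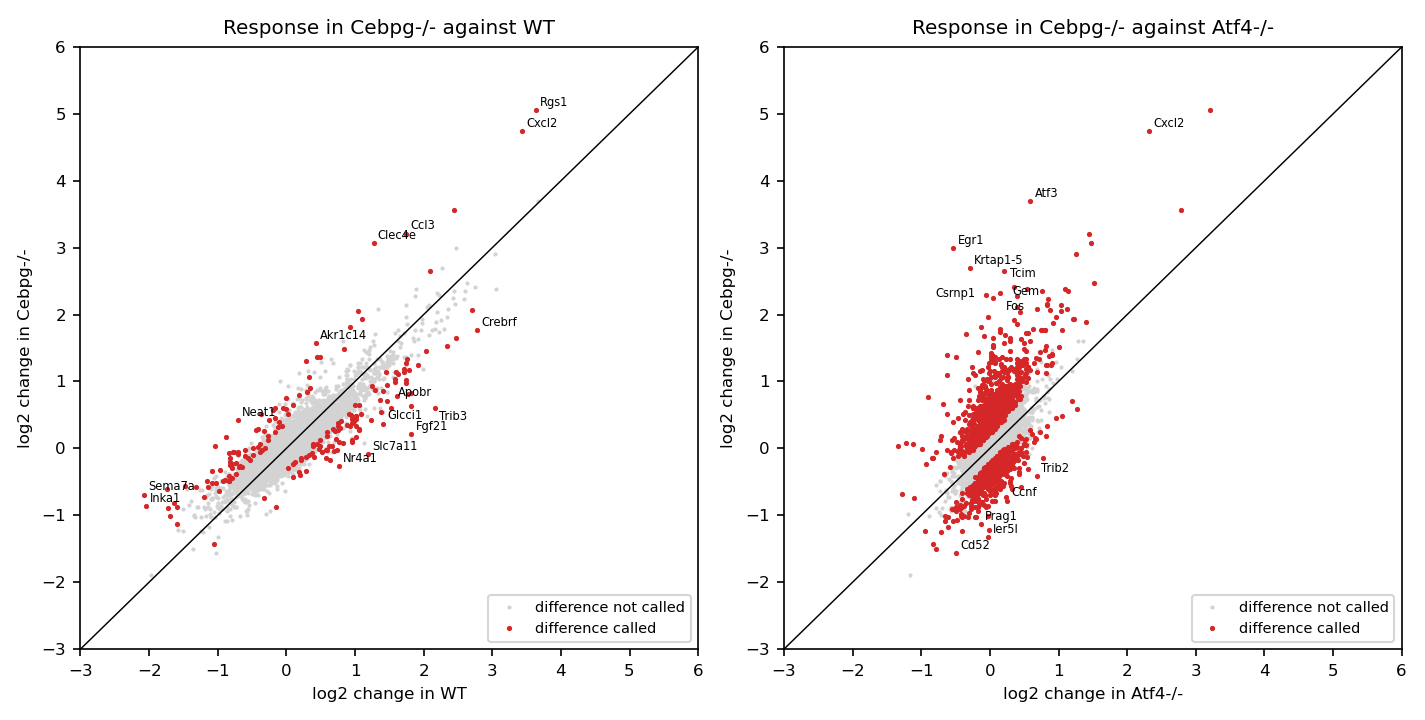
Log2 change under deprivation in Cebpg-/- cells (vertical) against WT (left) and Atf4-/- cells (right), 1 point for each of 13728 genes, with equal changes on the diagonal. Red points are genes whose responses differ at an adjusted p under 0.05, 189 against WT and 1824 against Atf4-/-, and the named genes have the largest called differences.

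Set beside Atf4-/- cells, the response of Cebpg-/- cells differed in many genes and in both directions. In Atf4-/- cells 1523 genes were called (11.1%), 881 up (6.42%) and 642 down (4.68%), and 25 rose at least 2-fold (0.182%) and 7 fell (0.051%). Of these, 22 risers were shared, 11.1% of the Cebpg-/- list and 88.0% of the Atf4-/- list, and 1 faller was, 4.0% and 14.3%. The correlation of changes across genes was 0.56. The test of the difference, which uses the same Cebpg-/- arrays as that against WT, called 1824 genes (13.3%), 1037 with a higher response in Cebpg-/- cells (7.55%) and 787 with a lower one (5.73%). Of the 198 Cebpg-/- risers 178 had a higher and 0 a lower response than in Atf4-/- cells. Their median change was 0.41 in Atf4-/- cells, and of the 25 fallers 23 fell further in Cebpg-/- cells, where selection on the Cebpg-/- values favours that direction. The count of lower responses was 482 and 387 without Cebpg-/- replicates 1 and 2, and 385 and 414 without Atf4-/- replicates 2 and 3. Without Atf4-/- replicate 1, the pair with the WT pattern of Xist, 773 were higher and 588 lower.

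Egr1 differed most, with a change of -0.53 ± 0.11 in Atf4-/- cells and 2.99 ± 0.11 in Cebpg-/- cells (difference 3.53 ± 0.15, adjusted p = 1.68e-06). Atf3 changed by 0.59 ± 0.10 and 3.70 ± 0.10, a difference of 3.12 ± 0.15. The keratin-associated gene Krtap1-5, Tcim and Csrnp1 differed by 2.99 ± 0.20, 2.45 ± 0.11 and 2.35 ± 0.13, Fos by 2.20 ± 0.17, Gem by 2.17 ± 0.16 and Cxcl2 by 2.42 ± 0.19. Levels in normal medium differed too. Csrnp1 averaged 11.01 in normal and 10.95 in deprived medium in Atf4-/- cells, against 8.83 and 11.12 in Cebpg-/- cells. In normal medium Atf3 (8.48 against 7.24), Tcim (8.91 against 7.53), Egr1 and Gem also averaged higher in Atf4-/- cells. Krtap1-5 (3.89 against 4.53), Fos and Cxcl2 averaged lower there. In the immediate early list 26 of 34 genes had a higher response in Cebpg-/- cells, beside 7.55% of all genes. The list's median was 0.75 against -0.11 in Atf4-/- cells. Among the stress regulators 9 of 26 had a higher response, beside the same share. For Trib3 (0.49 ± 0.18), Fgf21 (0.40 ± 0.25), Slc7a11 (-0.02 ± 0.15) and Chac1 (0.32 ± 0.17) the difference between the knockouts did not pass the test. In Atf4-/- cells Fgf21 (4.60 and 4.41) and Slc7a11 (4.48 and 4.42) averaged under the filter level in both media, where a response could hardly be read. Trib3 averaged 5.78 and 5.90 in Atf4-/- cells against 8.10 and 8.71 in Cebpg-/- cells. Chac1 averaged 5.23 and 5.92 against 8.61 and 9.62, so the levels of both differed. Fasting-type genes also rose in Atf4-/- cells, Pdk4 by 1.52 ± 0.08 and Irs2 by 1.40 ± 0.07, with differences of 0.95 ± 0.11 and 0.50 ± 0.10. Lower responses were led by Ier5l (-1.30 ± 0.13), Trib2 (-1.09 ± 0.18), Cd52 (-1.07 ± 0.12), Ccnf (-1.02 ± 0.14) and Prag1 (-1.0 ± 0.07). That of Trib2 was -0.38 with the mean of all probe sets (adjusted p = 0.149), and without the replicate block those of Trib2 (adjusted p = 0.0516) and Cd52 (adjusted p = 0.104) were not called. Macrophage markers were lower by this test in 7 of 18 cases, beside 5.73% of all genes. Their summed level in normal medium was 10170 to 13070 in Atf4-/- cells.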

How the data were processed

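RNA of 6 groups, 3 arrays each, was hybridised to whole-genome mouse expression arrays. What the authors deposited is on the log2 scale, 1 value per probe set and array, made with RMA per the submitters' processing notes, whose version is not given; array medians were 5.21 to 5.27, and no further normalization was applied. Of 45101 probe sets 34958 had 1 gene symbol, 932 had several and 9211 were not listed. The probe set with the highest mean stood for each of 18194 genes, and 13728 genes whose highest group mean reached 4.65 (40th percentile) were tested. Precision rests on 3 arrays per group, and the median residual SD was 0.080.

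A single limma model (3.58.1, R 4.3.3) took all 18 arrays, with a block for each replicate number within a genotype (6 residual degrees of freedom) and Benjamini-Hochberg adjustment over all genes. Same-numbered Cebpg-/- arrays deviated together from their group means (correlations 0.30 to 0.62; other numbers at most 0.09). Without the replicate block 1600 genes rose and 1413 fell in Cebpg-/- cells. Simulated data for this comparison held 13728 genes, with 50 changed at each fold tried. There the fit recovered 86% of 1.5-fold and 100% of 2-fold changes, with 12 calls among 13528 unchanged genes. The simulated noise was normal and independent between genes and arrays, with no array that stood apart, and few genes changed. In the real data 34% of genes were called, so the simulated rates hold for that simpler setting only.

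The members, gene lists and tests were chosen with earlier results of these data known. Names follow a rule: Cebpg and Atf4, the top 15 rises and the top 15 falls past 2-fold, up to 8 largest differences from each genotype in each direction, the 4 largest changes in each list, and all stress regulators and C/EBP and ATF factors; unnamed genes (1, 1 and 2 in these rankings) were skipped. Chosen after their values were seen were the keratin, Xist and Y-linked genes on the arrays' quality, the members named in counts of 5 or fewer, and Psph, Phgdh, Slc7a5, Gclc, Fbxo32, Foxo1, Foxo3, Mtor, Rptor, Rheb, Jun, Fosb, Junb, Myc, Ccl2, Il6, Tnf, Nfkbia, Il1b, Ptgs2, Csf1r, Ptprc, Vim, Col1a1, Cdkn1a, Hspa5, Xbp1, Per1, Per2, Clock and Insig2. Promoter sequences are RefSeq's (GRCm38.p6), and 11038 of the genes tested had one. Alternatives changed the normalization, probe set choice, filter, block, variance model, arrays in the fit and each replicate.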

Additional observations from a re-analysis of the deposited data

Results flagged for a closer look

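Each of these genes was picked out because its response to deprivation differed between Cebpg-/- cells and another genotype by the limma test of the difference (adjusted p under 0.05) and by at least 2-fold. Values are the log2 response in Cebpg-/- cells minus that in the other genotype, ± SE, with 3 pairs of arrays each. Cxcl2, Clec4e, Akr1c14 and Krtap1-5 averaged under the filter level of 4.65 in Cebpg-/- cells in normal medium. Ccl3 did so in WT cells in normal medium (4.39). The sizes of the differences from WT of Ccl3, and of all differences of the others, are thus uncertain.

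Above WT cells stood Clec4e (1.80 ± 0.17), Ccl3 (1.47 ± 0.17), Rgs1 (1.43 ± 0.28), Sema7a (1.38 ± 0.09), Cxcl2 (1.30 ± 0.19), Inka1 (1.19 ± 0.24), Akr1c14 (1.16 ± 0.11) and Neat1 (1.13 ± 0.10). Below WT cells stood Fgf21 (-1.61 ± 0.25), Trib3 (-1.55 ± 0.18), Slc7a11 (-1.27 ± 0.15), Apobr (-1.18 ± 0.16), Glcci1 (-1.05 ± 0.10), Nr4a1 (-1.03 ± 0.09) and Crebrf (-1.01 ± 0.18).

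Above Atf4-/- cells stood Egr1 (3.53 ± 0.15), Atf3 (3.12 ± 0.15), Krtap1-5 (2.99 ± 0.20), Tcim (2.45 ± 0.11), Cxcl2 (2.42 ± 0.19), Csrnp1 (2.35 ± 0.13), Fos (2.20 ± 0.17) and Gem (2.17 ± 0.16). Below Atf4-/- cells stood Ier5l (-1.30 ± 0.13), Trib2 (-1.09 ± 0.18), Cd52 (-1.07 ± 0.12), Ccnf (-1.02 ± 0.14) and Prag1 (-1.0 ± 0.07).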

How the results depend on the processing

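No called difference or called change of a gene named by the rule above changed sign under any alternative run. Some that were not called did, such as Krt14, which went to -0.07 without replicate 2. Genes named outside that rule were not followed through the alternatives. Rises outnumbered falls in Cebpg-/- cells (50.7% of calls) but not after quantile normalization (44.8%), with the mean of all probe sets (46.8%) or without replicate 3 (1718 rises, 1721 falls). Without the replicate block 1413 genes fell in Cebpg-/- cells, 11 and 20 had a higher and a lower response than in WT cells (7 and 4 by at least 2-fold), and 507 and 221 than in Atf4-/- cells; 35 of 223 values of named genes lost their call, among them the differences from WT in Cxcl2 (adjusted p = 0.0566), Apobr (0.0534), Neat1 (0.401), Glcci1 (0.381) and Crebrf (0.0608), those from Atf4-/- cells in Trib2 (0.0516) and Cd52 (0.104), and the changes in Cebpg-/- cells of Cebpg (0.0868), Nupr1 (0.138), Sesn2 (0.306), Atf5 (0.091), Lif (0.122), Srxn1 (0.192), Acta1 (0.19), Map2 (0.285) and Sox2 (0.234). Without it 0 S phase genes rose, and 3 ribosome biogenesis genes, 3 YAP and SRF targets and 9 macrophage markers fell. With an intensity trend and robust prior, 218 and 254 genes had a higher and a lower response than in WT cells and 1221 a lower one than in Atf4-/- cells. Subtracting array medians left 15 genes falling at least 2-fold. With the mean of all probe sets, 4 and 3 genes had a lower response by at least 2-fold than in WT and Atf4-/- cells, and the changes of Neat1, Glcci1 and Trib2 in Cebpg-/- cells were not called (adjusted p = 0.0747, 0.0753 and 0.731). Leaving out 1 replicate gave 1513 to 1721 falls, 31 to 69 higher and 40 to 80 lower responses than in WT cells, 9 to 13 higher by at least 2-fold, and 385 to 589 lower than in Atf4-/- cells. The fits without a WT or Atf4-/- replicate were added after seeing the data. The signal over background of dim genes such as Cxcl2 in normal medium limits their fold changes.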
